A study of Mus musculus with 23 samples.

Results

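Ribosome footprints of 2 groups of mouse intestinal organoids were compared, the 3 libraries labelled Rptor fl/fl and the 3 libraries labelled stem cell enriched (SCe), which are 6 of the 23 samples of the series. Footprints are the fragments of mRNA that a translating ribosome shields from RNase, so that their number on a coding sequence measures ribosome occupancy and combines the amount of an mRNA with its use by ribosomes. They were counted for 22230 coding genes, of which 10817 had enough footprints to be tested. The series also holds organoid RNA-seq (WT, SCe and Rptor fl/fl) and footprints of Lgr5Cre.ERT2 RPL22.HA mice with and without floxed Rptor. In these mice the pulldown was aimed at Lgr5-positive cells. Values of the RNA-seq and of the mice are given only beside a footprint result.

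Both organoid groups are on the C57BL/6 background and carry Cre-ERT2 driven by the Villin promoter, which is active in intestinal epithelium, together with an HA-tagged RPL22, through which ribosomes were pulled down after cycloheximide treatment. The SCe organoids have WT Rptor (VillinCre.ERT2.RPL22.HA) and grew in ENR medium (EGF, Noggin and R-spondin) with 10 µM CHIR 99021, an inhibitor of GSK3, and 1.5 mM valproic acid, an inhibitor of histone deacetylases. The other organoids carry floxed Rptor (VillinCre.ERT2.Rptor.fl/fl.RPL22.HA). Their label says untreated, whereas the study's methods describe induction of Cre with tamoxifen for animals of both genotypes. Genotype and medium differ together between the groups and cannot be told apart, nor can induction if it differed. Whether the 3 libraries of a group came from separate animals is not stated in the labels, so p-values measure the spread between these libraries.

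Raptor, the product of Rptor, is the subunit of mTOR complex 1 (mTORC1) that recruits its substrates, and mTORC1 drives ribosome production and the translation of mRNAs with a 5′ terminal oligopyrimidine (TOP) tract while restraining lysosome genes and autophagy. In the intestinal crypt, Wnt signals sustain Lgr5-positive stem cells, from which absorptive enterocytes and the secretory Paneth, goblet, enteroendocrine and tuft cells arise. Inhibition of GSK3 stabilises β-catenin and so activates Wnt targets, and valproic acid is combined with it to hold organoids in a stem cell state.

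The libraries labelled Rptor fl/fl (Rptor-labelled below) were deeper and closer to each other than the SCe libraries. Coding sequences held 1981129, 1106178 and 4242425 footprints in SCe 1, 2 and 3 and 5992941, 6379236 and 8257457 in Rptor-labelled 1, 2 and 3. All values per library are given in this order, in CPM, that is footprints on the gene scaled to the size of the library with edgeR's TMM factors. Pearson correlations of log2 values across genes were 0.903 to 0.935 within SCe, 0.978 to 0.987 within the Rptor-labelled group and 0.863 to 0.899 between groups. SCe 1 stood apart by sequence length. In the shortest of 4 classes of genes by sequence length its median deviation from each gene's mean was 0.40 (log2), where the other libraries had -0.14 to -0.03, and in the longest class it was -0.36. Epithelial markers were at 9735 to 20433 CPM in sum, while those of immune cells, stroma and smooth muscle were at no more than 3.53, 5.78 and 14.6 CPM. The haemoglobin genes Hbb-bs and Hbb-bt, near-identical copies, were called lower, and the erythroid list summed to 250, 1.71 and 124 CPM in the SCe libraries against at most 4.65 CPM elsewhere. The Y-linked genes were at 2.17 and 2.66 CPM in replicate 1 of the groups and at 90.2 to 161 CPM in the others.

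**Figure D1:**
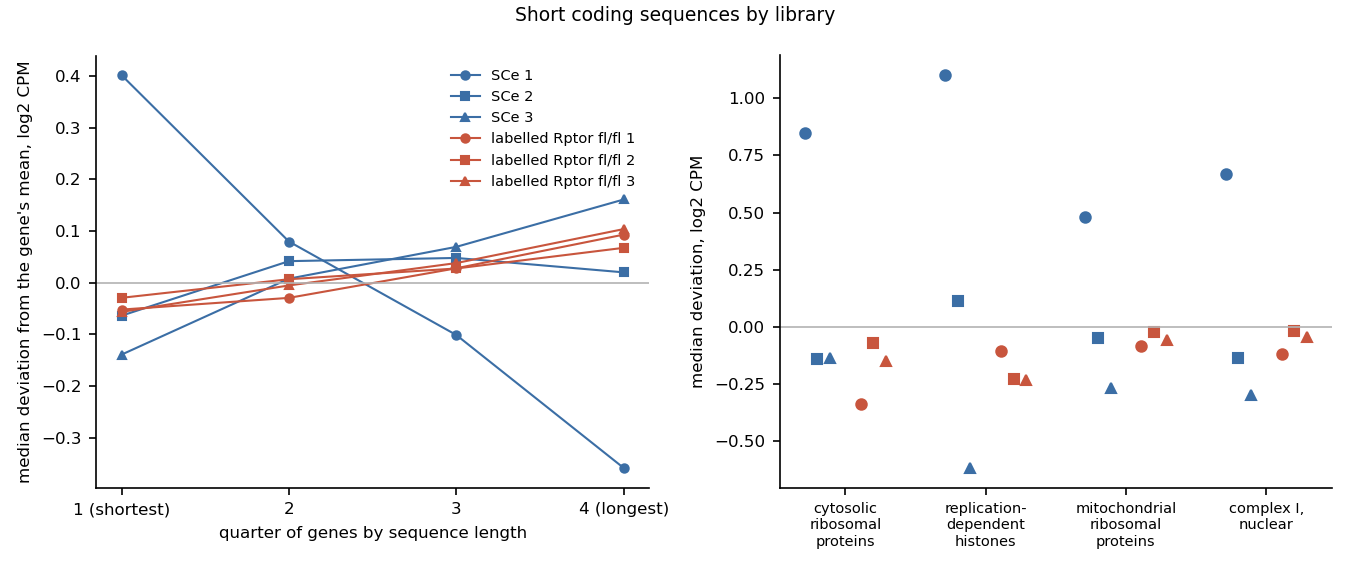
Left, median deviation of each library from the gene's mean over the 6 libraries (log2 CPM) by class of genes in sequence length, 4 classes of equal size; right, the same for lists of short genes, with 1 point per library (circle, square and triangle for replicates 1, 2 and 3; blue SCe, red labelled Rptor fl/fl). SCe 1 is at 0.40 in the shortest class and -0.36 in the longest, and is the highest library in each of the 4 lists.

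The floxed gene did not separate the groups. Rptor, on chromosome 11, had 15.2, 41.9 and 21.05 CPM in SCe and 17.3, 18.7 and 15.96 CPM in the Rptor-labelled libraries, and the ranges overlap. The difference, always given as Rptor-labelled minus SCe on the log2 scale with its standard error, was -0.53 ± 0.34 (edgeR quasi-likelihood test, Benjamini-Hochberg adjusted p = 0.318, as for all adjusted p below). RNA-seq gave Rptor 60.8, 53.9 and 53.6 CPM in SCe, 51.6 and 48.01 CPM in 2 WT lines and 14.8 and 15.5 CPM in 2 lines with floxed Rptor. The RNA of the floxed lines was thus below every other RNA library, whereas the footprints were not apart.

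A second check of the label used genes whose RNA sets Rptor fl/fl apart from WT lines. There were 33 genes whose RNA was higher in the Rptor fl/fl lines than in the WT lines by at least 2 on the log2 scale (means with 1 CPM added) without overlap, and 57 lower by the same rule, which was chosen after values were seen. The footprint difference lay nearer to the RNA difference between WT and SCe than to that between Rptor fl/fl and SCe for 31 of the 33 and 44 of the 57, against 6038 of 10747 genes tested in both assays (56.2%). Fn1, encoding fibronectin, stood in RNA at 37.7, 62 and 80.6 CPM in SCe, 17.6 and 12.9 CPM in Rptor fl/fl and 0.151 and 0.202 CPM in WT, and its footprints were at 52.1, 101 and 216 CPM in SCe and 0.166, 0.635 and 0 CPM in the Rptor-labelled libraries. Lyz1, encoding Paneth cell lysozyme, had RNA at 211, 1343 and 1640 CPM, 103 and 206 CPM and 1257 and 1484 CPM in the same order of groups and footprints at 1148, 1110 and 1454 CPM and 1967, 1643 and 1720 CPM. So the RNA of Rptor fl/fl lines was high for Fn1 and low for Lyz1 beside WT, and the Rptor-labelled footprints showed neither. The cause was not tested. WT and Rptor fl/fl RNA came from 2 lines each, and the genotype label of the latter has no RPL22.HA.

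Across all genes called, footprints and both kinds of RNA mostly lay on the same side of SCe. There were 717 genes called higher (6.63% of genes tested) and 1064 called lower (9.84%), while 20.0% of all genes tested had every Rptor-labelled library above every SCe library and 19.3% had every one below. Of the 717, RNA lay above every SCe library in both WT lines for 658 (91.8%, against 43.0% of all genes tested) and in both Rptor fl/fl lines for 578 (80.6%, against 39.1%). Of the 1064 called lower, 1059 had RNA values, which lay below every SCe library in both WT lines for 914 (86.3%, against 28.1%) and in both Rptor fl/fl lines for 873 (82.4%, against 31.6%). WT lines carry unfloxed Rptor, and their label names neither CHIR 99021 nor valproic acid.

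**Figure D2:**
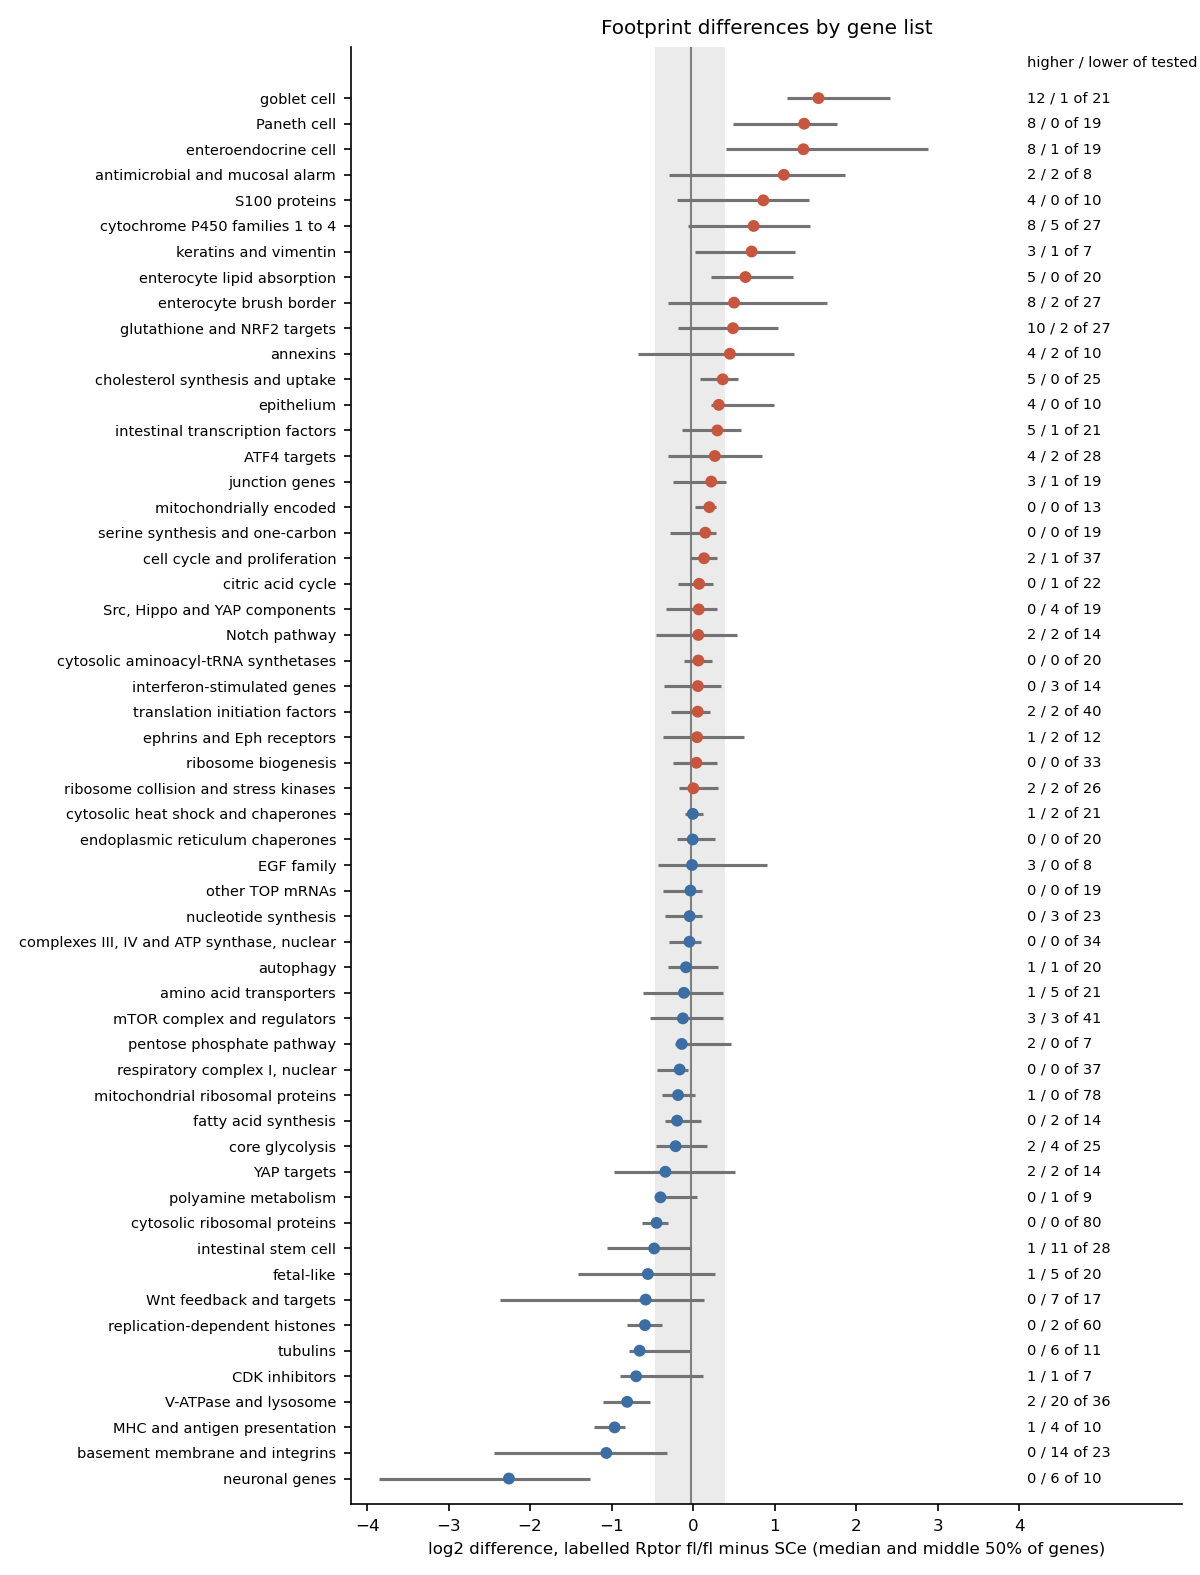
Median log2 difference in footprints (labelled Rptor fl/fl minus SCe) of each gene list with at least 5 tested members, as a dot, red above 0 and blue below, with the middle 50% of its genes as a line; the grey line and band are the median and middle 50% of all 10817 genes. Numbers at right are members called higher and lower of those tested; goblet, Paneth and enteroendocrine genes lie at the top, and V-ATPase and lysosome, MHC, basement membrane and neuronal genes at the bottom.

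Part of the stem cell and Wnt feedback genes were lower in the Rptor-labelled libraries. Summed over all members of the stem cell list, Olfm4 included, footprints were higher in the Rptor-labelled libraries. The sums were 5251, 8074 and 8711 CPM in SCe and 9927, 9937.5 and 9897 CPM in the Rptor-labelled libraries. By gene, 11 of 28 tested members of this list fell and 1 rose (median -0.48, all genes -0.02). The number that fell was 15, 6 and 7 when SCe 1, 2 and 3 were left out in turn and 5, 4 and 4 for Rptor-labelled 1, 2 and 3. It was 3 with an offset for effective length. Tnfrsf19, a Wnt-regulated receptor also called Troy, stood at 77.6, 118 and 157 CPM in SCe and 17.1, 15.2 and 16.3 CPM in the Rptor-labelled libraries. Smoc2, a secreted matricellular protein used as a stem cell marker, was at 603, 1033 and 977 CPM and 285, 284 and 270 CPM. The groups overlap for neither gene, and the differences were -2.86 ± 0.27 (adjusted p = 0.000696) and -1.64 ± 0.23 (adjusted p = 0.00288). Lgr5, the R-spondin receptor, fell by less (-1.23 ± 0.22, adjusted p = 0.00668). Olfm4, a secreted glycoprotein abundant in crypt base cells, went the other way, from 416, 852 and 1160 CPM to 4322, 4675 and 4469 CPM, a difference of 2.47 ± 0.34 (adjusted p = 0.00288). Its RNA was at 135, 42.2 and 52.9 CPM in SCe, 521 and 1681 CPM in Rptor fl/fl and 2871 and 4442 CPM in WT lines, above every SCe library in both, and in mice its footprints differed by -0.63 (adjusted p = 6.29e-05, Rptor fl/fl minus WT). Ascl2, the Wnt-responsive transcription factor of stem cells, did not pass the test (0.33 ± 0.21, adjusted p = 0.308).

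Of the Wnt feedback and targets list, 7 of 17 tested genes fell and 0 rose (median -0.58), and the number was 10, 7 and 6 when SCe 1, 2 and 3 were left out in turn and 7, 6 and 6 for Rptor-labelled 1, 2 and 3. Nkd1 (ENSMUSG00000031661.12, chromosome 8 of mm10 from 88521354 to 88594884, plus strand), a feedback antagonist that binds Dishevelled, stood at 60.2, 42.8 and 45.1 CPM in SCe and 2.49, 4.29 and 2.19 CPM in the Rptor-labelled libraries. Sp5, a transcription factor induced by β-catenin, was at 33.6, 28.2 and 37.7 CPM and 7.31, 5.88 and 6.21 CPM. Rnf43, a ubiquitin ligase that removes Frizzled receptors, was at 49.9, 32.5 and 48.6 CPM and 14.96, 13.02 and 13.8 CPM. In all of these every SCe library lay above every Rptor-labelled library, with differences of -4.05 ± 0.31, -2.37 ± 0.22 and -1.67 ± 0.22 (adjusted p = 0.000308, 0.000727 and 0.00256). Znrf3, a homologue of Rnf43, and Notum, a Wnt deacylase, also fell (-1.57 ± 0.32 and -4.39 ± 0.81), as did the transcription factors Lef1 and Prox1. Axin2, the scaffold of the β-catenin destruction complex and a much used Wnt reporter gene, was at 125, 206 and 232 CPM and 129, 119 and 129 CPM, overlapping ranges with a difference of -0.58 ± 0.23 (adjusted p = 0.121). Myc and Ctnnb1, which encodes β-catenin, had differences of 0.28 and 0.14 (adjusted p = 0.303 and 0.618). In RNA, Nkd1 stood at 81.4, 15.7 and 16.6 CPM in SCe, 0.948 and 1.71 CPM in Rptor fl/fl and 4.66 and 5.07 CPM in WT lines, and in mice its footprint difference was 0.33 (adjusted p = 0.651), with the mouse Wnt list at 1 higher and 1 lower of 15 (backgrounds 7.47% and 5.97%).

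**Figure D3:**
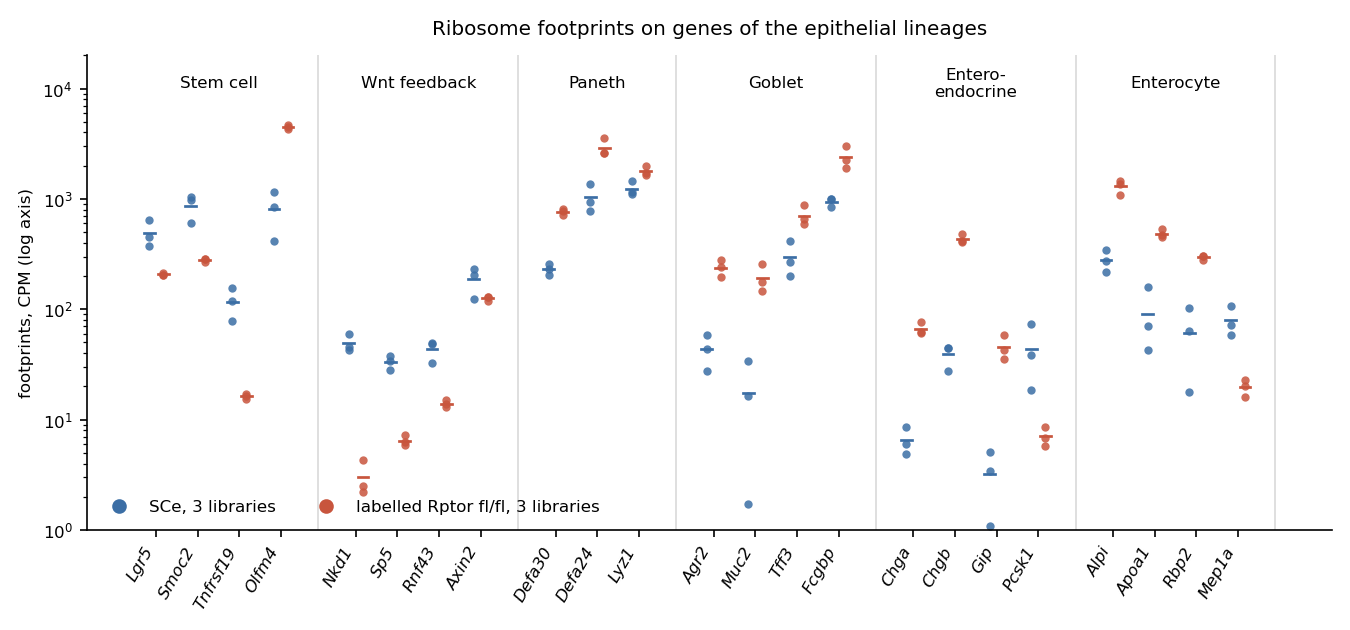
Footprints (CPM, log axis) of genes of the epithelial lineages in each of the 3 SCe libraries (blue) and 3 libraries labelled Rptor fl/fl (red), with the mean as a short line. Nkd1, Sp5, Rnf43, Smoc2 and Tnfrsf19 are lower and Olfm4, Chga, Chgb, Agr2 and Alpi higher in all 3 red libraries, without overlap, while Axin2 overlaps.

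Products of the secretory lineages had higher footprints in the Rptor-labelled libraries. Of the goblet cell list 12 of 21 tested genes rose and 1, Galnt12, fell (median 1.54), of the Paneth list 8 of 19 rose (median 1.36), and of the enteroendocrine list 8 of 19 rose and 1 fell (median 1.35). In bulk organoids, more cells of a type and more RNA per cell cannot be told apart. Muc2, the gel-forming mucin of goblet cells, stood at 16.3, 1.71 and 34.2 CPM in SCe and 255, 145 and 176 CPM in the Rptor-labelled libraries. Agr2, the disulfide isomerase that goblet cells need to make mucin, was at 43.4, 27.4 and 58.97 CPM and 278, 197 and 240 CPM, and Fcgbp, a mucus protein, at 997, 851 and 993 CPM and 3044, 1897 and 2236 CPM. No range overlaps, and the differences were 3.27 ± 0.57, 2.42 ± 0.28 and 1.34 ± 0.22 (adjusted p = 0.00665, 0.00147 and 0.00494). Spink4, Zg16 and Tff3, a protease inhibitor, a lectin and a trefoil peptide of goblet cells, rose as well (2.03, 2.84 and 1.26), while Atoh1, the transcription factor that commits cells to the secretory fate, did not pass the test (1.13 ± 0.37, adjusted p = 0.0692). The goblet count was 12, 11 and 18 when SCe 1, 2 and 3 were left out in turn and 8, 11 and 8 for Rptor-labelled 1, 2 and 3. It was 5 with the offset for effective length.

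Among enteroendocrine genes, Chgb (ENSMUSG00000027350.8, chromosome 2 of mm10 from 132781278 to 132795079, plus strand), a granin of secretory granules, had the smallest p of all rises. It stood at 27.7, 44.5 and 44.6 CPM in SCe and 480, 419 and 409 CPM in the Rptor-labelled libraries, a difference of 3.48 ± 0.23 (adjusted p = 0.000192). Chga, its homologue, was at 4.88, 5.99 and 8.56 CPM and 76.1, 62.6 and 61.4 CPM (3.28 ± 0.26), and Gip, the incretin of K cells, at 1.09, 3.42 and 5.09 CPM and 58.99, 42.7 and 35.1 CPM (3.66 ± 0.41). Tph1, which makes the precursor of serotonin, Ddc, the decarboxylase that follows it, and Reg4, a lectin, also rose (3.55, 1.35 and 2.35). Pcsk1, the prohormone convertase that processes proglucagon to GLP-1, fell from 18.4, 38.5 and 73.3 CPM to 5.82, 8.58 and 6.82 CPM (-2.66 ± 0.45, adjusted p = 0.00589). Neurog3, the transcription factor of endocrine progenitors, was at 5.43, 23.1 and 22.9 CPM and 19.9, 24.1 and 17.2 CPM, which overlap (0.24 ± 0.42, adjusted p = 0.742). The enteroendocrine count was 8, 8 and 8 when SCe 1, 2 and 3 were left out in turn and 6, 6 and 5 for Rptor-labelled 1, 2 and 3. It was 4 with the offset for effective length. Of 23 tuft cell genes only 4 had enough footprints to be tested, so no direction is read from this list. Its footprints, summed over all members, were 11.4, 15.4 and 12.95 CPM in SCe and 61.99, 31.3 and 39.8 CPM in the Rptor-labelled libraries.

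Paneth cell α-defensins rose and lysozyme did not pass the test. Defa30 stood at 203, 233 and 260 CPM in SCe and 770, 722 and 802 CPM in the Rptor-labelled libraries (1.72 ± 0.17, adjusted p = 0.000953) and Defa24 at 934, 781 and 1376 CPM and 3528, 2620 and 2610 CPM (1.50 ± 0.25, adjusted p = 0.00561), both without overlap. The α-defensin genes are near-identical copies between which the authors' counting may divide reads, so values of single copies are uncertain. Lyz1 differed by 0.52 ± 0.18 (adjusted p = 0.0891), and Mmp7, the protease that activates α-defensins, and Itln1, a lectin, by -0.92 ± 0.39 and 0.37 ± 0.32 (adjusted p = 0.141 and 0.473). In mice, 14 of 18 Paneth genes were called lower with Rptor fl/fl and 0 higher (backgrounds 5.97% and 7.47%). RNA of organoids had 3 higher and 2 lower of 21 against SCe (backgrounds 21.0% and 21.8%). The Paneth count was 9, 6 and 10 when SCe 1, 2 and 3 were left out in turn and 7, 6 and 6 for Rptor-labelled 1, 2 and 3. It was 5 with the offset for effective length.

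Enterocyte genes were higher in part. Of the brush border list 8 of 27 tested genes rose and 2 fell (median 0.50), and of the lipid absorption list 5 of 20 rose and 0 fell (median 0.64). Alpi, intestinal alkaline phosphatase, stood at 219, 276 and 342 CPM in SCe and 1084, 1462 and 1376 CPM in the Rptor-labelled libraries, with no overlap and a difference of 2.23 ± 0.23 (adjusted p = 0.000976). Apoa1, the apolipoprotein of high-density lipoprotein, was at 42.9, 70.1 and 161 CPM and 528, 452 and 469 CPM (2.38 ± 0.42), and Rbp2, the cellular carrier of retinol, at 17.9, 103 and 64.1 CPM and 305, 279 and 303 CPM (2.29 ± 0.47). The SCe values of both varied several-fold, yet lay below all Rptor-labelled values. The 2 subunits of the brush border protease meprin moved apart. Mep1a fell from 58.1, 72.7 and 107 CPM to 23.1, 15.9 and 20.3 CPM (-2.02 ± 0.27, adjusted p = 0.00245), while Mep1b rose from 21.2, 11.98 and 22.2 CPM to 68.5, 53.5 and 65.5 CPM (1.71 ± 0.25, adjusted p = 0.00329). Sis, sucrase-isomaltase, was at 54.3, 179 and 545 CPM and 818, 926 and 946 CPM with no overlap but did not pass the test (1.78 ± 0.64, adjusted p = 0.0937). Fabp1, the liver-type fatty acid binding protein, overlapped (0.73 ± 0.63, adjusted p = 0.464). The brush border count of rises was 11, 6 and 14 when SCe 1, 2 and 3 were left out in turn and 5, 5 and 5 for Rptor-labelled 1, 2 and 3, and that of lipid absorption 7, 5 and 6 when SCe 1, 2 and 3 were left out in turn and 2, 2 and 2 for Rptor-labelled 1, 2 and 3. With the offset for effective length the rises were 4 for the brush border and 1 for lipid absorption.

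Transcription factors of the epithelium were among the rises, with 5 of 21 higher and 1, Foxa3, lower. Hnf4g, a nuclear receptor of enterocytes, stood at 15.7, 53.04 and 42.1 CPM in SCe and 164, 179 and 206 CPM in the Rptor-labelled libraries (2.32 ± 0.36, adjusted p = 0.00422). Ppara, the fatty acid sensing nuclear receptor, was at 2.71, 1.71 and 1.39 CPM and 22.4, 27 and 25.2 CPM (3.75 ± 0.33, adjusted p = 0.000509). The rises of the intestinal transcription factors list numbered 5, 6 and 6 when SCe 1, 2 and 3 were left out in turn and 4, 4 and 3 for Rptor-labelled 1, 2 and 3. Hnf4a, Klf5 and Pdx1, a duodenal homeobox factor, rose by smaller amounts (0.91, 0.94 and 1.31). No group of these genes overlaps the other. Of the EGF family, the receptor genes Egfr, Erbb2 and Erbb3 rose (0.81 ± 0.17, 1.31 ± 0.20 and 1.21 ± 0.24) and none of the 8 tested fell, and 2 genes of the EGF family rose without any one Rptor-labelled library. Of the Notch pathway 2 of 14 rose and 2 fell, which became 1 and 0 without any one Rptor-labelled library. Dll1, the ligand that secretory progenitors present, rose from 9.22, 15.4 and 9.48 CPM to 60.8, 34.1 and 35.6 CPM (2.00 ± 0.32, adjusted p = 0.00494), whereas Notch1 overlapped (0.17 ± 0.20, adjusted p = 0.592).

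The list with most members called lower was that of the lysosome. Of the V-ATPase and lysosome list, 20 of 36 tested members were lower in the Rptor-labelled libraries and 2 were higher (median -0.81), and footprints summed over all members were 7045, 6624 and 8407 CPM in SCe and 4055, 3922 and 3949.9 CPM in the Rptor-labelled libraries. Ctsl (ENSMUSG00000021477.9, chromosome 13 of mm10 from 64359337 to 64370890, minus strand), a cysteine protease of the lysosome, stood at 264, 340 and 440 CPM in SCe and 64.1, 57.02 and 57.9 CPM in the Rptor-labelled libraries. Ctsa, the carboxypeptidase that protects neuraminidase, was at 373, 428 and 499 CPM and 119, 122 and 133 CPM, and Lamp2, a lysosomal membrane protein, at 337, 330 and 530 CPM and 134, 137 and 156 CPM. The groups are well separated for each, with differences of -2.55 ± 0.22, -1.79 ± 0.18 and -1.49 ± 0.22 (adjusted p = 0.000498, 0.000864 and 0.00372). Lamp1, Grn, the precursor of granulins, the hydrolases Hexa, Neu1 and Ctsd, and Atp6v1a, the catalytic subunit of the proton pump, also fell (-1.06, -1.37, -1.53, -1.46, -1.07 and -1.02). Tcirg1, encoding a membrane subunit of the pump, fell (-1.53 ± 0.18, adjusted p = 0.00166), but with an offset for effective length the sign turned, to 0.34 (adjusted p = 0.787). Ctss, a cysteine protease linked to antigen presentation, and Atp6v0a2, another isoform of the Tcirg1 subunit, rose (3.07 ± 0.46 and 0.82 ± 0.19). Of the members called, 9 of 22 were called in every alternative run. The number that fell was 27, 19 and 16 when SCe 1, 2 and 3 were left out in turn and 12, 12 and 11 for Rptor-labelled 1, 2 and 3, and it was 9 with the offset for effective length.

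In RNA against SCe (backgrounds 21.0% higher and 21.8% lower), 16 of 41 members were lower and 6 higher. Of the 20 members with lower footprints, 19 had RNA below every SCe library in both WT lines and 15 in both Rptor fl/fl lines. Among all 1059 genes with lower footprints and RNA values, the shares were 86.3% (WT) and 82.4% (Rptor fl/fl). Whether the lysosome members differ from these genes in either share was not tested. Ctsl RNA stood at 180, 218 and 190 CPM in SCe, 107 and 81.2 CPM in Rptor fl/fl and 33.4 and 35.6 CPM in WT lines, so the Rptor fl/fl lines lay between the other groups. In mice, 14 of 37 members were called higher with Rptor fl/fl and 0 lower (backgrounds 7.47% and 5.97%). Ctsl there differed by 0.77 and Ctsd by 0.54 (adjusted p = 3.64e-05 and 0.000366). The autophagy list had 1 higher and 1 lower of 20 in organoid footprints, and 3 lower without SCe 2.

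**Figure D4:**
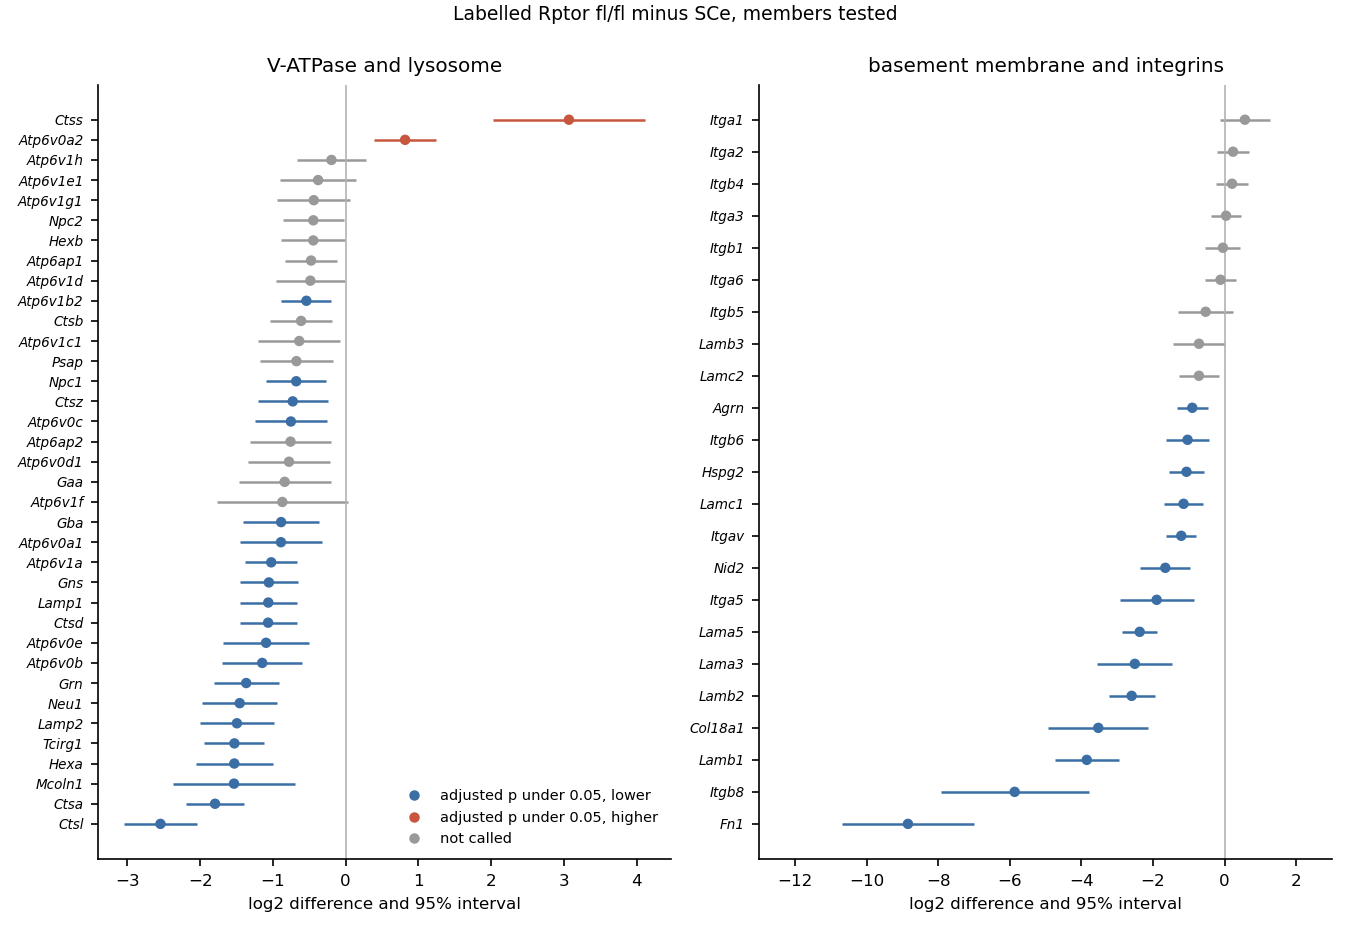
Log2 difference in footprints (labelled Rptor fl/fl minus SCe) with its 95% interval for every tested member of the V-ATPase and lysosome list (left) and of the basement membrane and integrins list (right), blue where called lower, red where called higher and grey where not called. On the left 20 members are blue and 2 red of 36, on the right 14 blue and none red of 23.

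Many lysosome genes carry in their promoters the palindrome TCACGTGA, the core of the element bound by TFEB and its relatives, transcription factors that mTORC1 restrains. The motif was searched in RefSeq windows of 250 bases before to 50 bases after each gene start on GRCm38.p6. As a palindrome it reads the same on both strands. It was in 320 of 32851 windows of all genes (0.974%), in 1.96% of windows of genes tested and in 6 of 32 windows of tested V-ATPase and lysosome members (18.8%), for 6 of the 26 genes with a window. The stretches around the match in these 6 genes are shown, with the motif in capitals, because they mark which members of the list carry it; Ctsa holds a second, overlapping stretch that is not shown.
Atp6v0e, chr17:26676387-26676416, plus strand: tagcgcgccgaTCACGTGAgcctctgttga
Atp6v1a, chr16:44139373-44139402, minus strand: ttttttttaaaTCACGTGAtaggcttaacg
Ctsa, chr2:164833749-164833778, plus strand: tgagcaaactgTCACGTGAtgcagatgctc
Ctsd, chr7:142387908-142387937, minus strand: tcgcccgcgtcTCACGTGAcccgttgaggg
Mcoln1, chr8:3500462-3500491, plus strand: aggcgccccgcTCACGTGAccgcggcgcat
Atp6v0d1, chr8:105566050-105566079, minus strand: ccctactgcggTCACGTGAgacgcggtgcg
Of these, the first 5 were called lower in the Rptor-labelled libraries (-1.09, -1.02, -1.79, -1.07 and -1.53), Mcoln1 encoding a lysosomal calcium channel, and Atp6v0d1 was not called (-0.78 ± 0.25, adjusted p = 0.0668). Of all 26 members with a window 16 were called lower, and 5 of these 16 hold the motif, as does 1 of the 9 not called. Whether the motif goes with the call was not tested. Ctsl, Lamp1 and Lamp2 are not among the 6 genes with a match, but only 16 of the 20 members called lower had a window. Whether these genes were among those searched is not given. A match describes letters in this window only.

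Matrix genes came next by the number of members called lower in the Rptor-labelled libraries, with a larger share than the lysosome list. Of the basement membrane and integrins list 14 of 23 tested members fell and 0 rose (median -1.06). The fibronectin gene Fn1, at the values given above, differed by -8.84 ± 0.81 (adjusted p = 0.000677), on 1, 4 and 0 footprints in the Rptor-labelled libraries. Lama5, the α chain of laminin-511, stood at 105, 142 and 169 CPM in SCe and 26.4, 29.4 and 24.97 CPM in the Rptor-labelled libraries (-2.37 ± 0.21, adjusted p = 0.000594), and Lamb2, a laminin β chain, at 68.4, 84.7 and 126 CPM and 19.9, 12.7 and 14.01 CPM (-2.60 ± 0.28, adjusted p = 0.00130). Neither gene's groups overlap. Hspg2, perlecan, Lamc1 and the integrin gene Itgav fell by less (-1.06, -1.15 and -1.21), whereas Itgb1, Itga6 and Itgb4, which anchor epithelial cells to laminin, did not pass the test (-0.05, -0.11 and 0.21, adjusted p = 0.906, 0.728 and 0.503). Lama5 RNA was at 271, 165 and 177 CPM in SCe, 407 and 284 CPM in Rptor fl/fl and 93.4 and 56.8 CPM in WT lines, so it was lowest in WT. In mice 15 of 26 members were higher with Rptor fl/fl and 0 lower (backgrounds 7.47% and 5.97%). The same mouse libraries held footprints of stroma and endothelium genes, of which 7 of 11 were higher and 0 lower. The cells behind these mouse counts cannot be told apart. The count of members that fell was 16, 13 and 12 when SCe 1, 2 and 3 were left out in turn and 11, 9 and 8 for Rptor-labelled 1, 2 and 3, and it was 6 with the offset for effective length.

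Tubulins fell in 6 of 11 tested genes, and none rose. Tubb6, a β-tubulin (48.8, 58.2 and 55.97 CPM in SCe and 0.831, 1.11 and 1.34 CPM in the Rptor-labelled libraries), had the smallest p of all falls (-5.57 ± 0.26, adjusted p = 7.91e-05). Tuba1a, an α-tubulin abundant in neurons, was at 289, 199 and 355 CPM and 20.3, 16.4 and 14.7 CPM (-4.04 ± 0.26, adjusted p = 0.000192). Tubulin genes are similar in sequence, and reads may be divided between them. Tuba1b, with more footprints, overlapped between groups (-0.18 ± 0.18, adjusted p = 0.533). The tubulin count was 6, 3 and 5 when SCe 1, 2 and 3 were left out in turn and 2, 2 and 2 for Rptor-labelled 1, 2 and 3. It was 2 with the offset for effective length. The intermediate filament genes moved apart. Vim, vimentin, fell from 139, 234 and 808 CPM to 7.81, 4.45 and 4.99 CPM (-6.11 ± 0.71, adjusted p = 0.00149), and the epithelial keratins Krt19, Krt8 and Krt18 rose (of keratins and vimentin 4, 2 and 3 when SCe 1, 2 and 3 were left out in turn and 2, 1 and 1 for Rptor-labelled 1, 2 and 3 rose), Krt19 from 1295, 1356 and 1275 CPM to 3481, 3616 and 3385 CPM (1.42 ± 0.16, adjusted p = 0.00147). Stroma markers were near 0 in all libraries, as given above. Of the neuronal list 6 of 10 tested members fell and the count was 9, 6 and 6 when SCe 1, 2 and 3 were left out in turn and 7, 4 and 4 for Rptor-labelled 1, 2 and 3. Mapt, encoding tau, and Dpysl3, a partner of tubulin, were among them (-2.35 and -4.28). Among annexins the rises numbered 5, 3 and 3 when SCe 1, 2 and 3 were left out in turn and 2, 2 and 2 for Rptor-labelled 1, 2 and 3. Annexins rose in 4 and fell in 2 of 10, with Anxa6 from 252, 261 and 233 CPM to 32.4, 20.8 and 22.5 CPM (-3.30 ± 0.21, adjusted p = 0.000192) and Anxa10 from 16.3, 5.13 and 9.94 CPM to 105, 89.3 and 87.6 CPM (3.12 ± 0.31, adjusted p = 0.000859).

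Fetal-like genes, a set that intestinal epithelium expresses before birth and after injury, had calls in both directions. Of 20 tested members 5 fell, Il33, Plat, Marcksl1, Cldn4 and Lama3, and 1, Anxa8, rose (median -0.55; backgrounds 9.84% lower and 6.63% higher). RNA against SCe had 11 higher and 3 lower of 25 (median 1.43; backgrounds 21.0% and 21.8%). Mice had 10 higher and 0 lower of 22 (backgrounds 7.47% and 5.97%). Clu, clusterin, stood at 241, 67.6 and 50.6 CPM in SCe and 185, 104 and 130 CPM in the Rptor-labelled libraries, which overlap (0.23 ± 0.52, adjusted p = 0.806), and Ly6a, encoding Sca-1, at 136, 7.70 and 35.2 CPM and 17.1, 9.05 and 10.7 CPM (-2.30 ± 0.75, adjusted p = 0.0701). SCe 1 was the highest library for both of these. The count that fell was 8, 8 and 7 when SCe 1, 2 and 3 were left out in turn and 5, 5 and 5 for Rptor-labelled 1, 2 and 3. No member was called higher when any one Rptor-labelled library was left out. With the offset for effective length 0 rose and 3 fell. Among Src, Hippo and YAP components 4 of 19 fell and 0 rose. Wwtr1, encoding the YAP homologue TAZ, fell from 27.1, 23.95 and 21.05 CPM to 4.65, 4.45 and 2.68 CPM (-2.61 ± 0.30, adjusted p = 0.00149), whereas Yap1 and Src overlapped (0.36 ± 0.25 and -0.06 ± 0.25, adjusted p = 0.357 and 0.904). The count that fell was 3, 3 and 3 when SCe 1, 2 and 3 were left out in turn and 2, 2 and 2 for Rptor-labelled 1, 2 and 3, and 1 with the offset for effective length. YAP targets had 2 higher and 2 lower of 14, and the rises numbered 2, 1 and 2 when SCe 1, 2 and 3 were left out in turn and 0, 2 and 0 for Rptor-labelled 1, 2 and 3.

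The translation machinery showed few calls. None of 80 cytosolic ribosomal protein genes passed the test in edgeR (median -0.45), with 5 lower in DESeq2. Their footprints summed to 143660, 73379 and 74960 CPM in SCe and 65747, 77358 and 72977 CPM in the Rptor-labelled libraries, so SCe 1 alone lay apart, and without it the median was -0.03 with 3 genes called lower. None of 19 other TOP mRNAs, 33 ribosome biogenesis genes and 20 cytosolic aminoacyl-tRNA synthetases passed (medians -0.03, 0.04 and 0.06). Leaving out 1 SCe library gave at most 2 called genes in either direction in each of these 3 lists. Eef1a1, the elongation factor that carries aminoacyl-tRNA, stood at 8568, 8539 and 12761 CPM and 8512, 10116 and 9821 CPM (-0.07 ± 0.22, 95% interval -0.56 to 0.42). In mice, 36 of 79 ribosomal protein genes and 10 of 33 biogenesis genes were lower with Rptor fl/fl (background 5.97%). Of the initiation factors 2 of 40 rose and 2 fell, shares of 5.0% each that are below those of all genes (6.63% and 9.84%). Eif5, which stimulates GTP hydrolysis at the start codon, rose from 171, 196 and 210 CPM to 368, 381 and 410 CPM (1.00 ± 0.16, adjusted p = 0.00494). Eif3a rose as well (0.71 ± 0.18, adjusted p = 0.0276), while Eif4e3 and Eif5a2 fell. Of the translation initiation factors the rises numbered 6, 1 and 5 when SCe 1, 2 and 3 were left out in turn and 1, 1 and 1 for Rptor-labelled 1, 2 and 3, and the falls 1, 2 and 4 when SCe 1, 2 and 3 were left out in turn and 0, 0 and 0 for Rptor-labelled 1, 2 and 3.

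Of 41 tested genes of the mTOR complex and regulators list, 3 were higher and 3 lower, shares near those of all genes (6.63% and 9.84%). Pdcd4 (ENSMUSG00000024975.13, chromosome 19 of mm10 from 53892231 to 53929860, plus strand), an inhibitor of the helicase eIF4A that S6 kinase marks for degradation, rose from 156, 121 and 196 CPM to 417, 474 and 417 CPM (1.46 ± 0.21, adjusted p = 0.00316). Deptor, which binds and inhibits mTOR, rose from 48.8, 49.6 and 64.8 CPM to 102, 103 and 103 CPM (0.90 ± 0.17, adjusted p = 0.0101), as did Eef2k, the kinase that slows elongation (0.91 ± 0.22). Rragd, a GTPase that brings mTORC1 to the lysosome, fell from 14.1, 12.8 and 13.4 CPM to 5.32, 2.54 and 3.65 CPM (-1.81 ± 0.35, adjusted p = 0.0107), and Sesn3, a stress-induced inhibitor of mTORC1, and Eif4ebp2 fell too. The RNA of Deptor stood at 102, 122 and 114 CPM in SCe, 219 and 234 CPM in Rptor fl/fl and 205 and 213 CPM in WT lines, higher in both other groups than in SCe. Mtor overlapped between groups, with a 95% interval of the difference of -0.47 to 0.47. The rises numbered 3, 3 and 3 when SCe 1, 2 and 3 were left out in turn and 2, 1 and 1 for Rptor-labelled 1, 2 and 3, and the falls 5, 3 and 4 when SCe 1, 2 and 3 were left out in turn and 2, 1 and 0 for Rptor-labelled 1, 2 and 3. Eef2k lost its call without any one Rptor-labelled library, Deptor without Rptor-labelled 2 or 3, and Rragd without Rptor-labelled 3.

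ATF4 targets, genes of the amino acid response, rose in 4 and fell in 2 of 28 tested members (median 0.27). The rises of ATF4 targets numbered 5, 5 and 8 when SCe 1, 2 and 3 were left out in turn and 3, 3 and 2 for Rptor-labelled 1, 2 and 3, and the falls 5, 3 and 2 when SCe 1, 2 and 3 were left out in turn and 2, 2 and 2 for Rptor-labelled 1, 2 and 3. Atf4 itself stood at 13.6, 23.1 and 28.2 CPM in SCe and 75.9, 53.7 and 57 CPM in the Rptor-labelled libraries (1.49 ± 0.28, adjusted p = 0.00900), while its RNA differed by 0.32 (adjusted p = 0.0857). Trib3, a pseudokinase, rose from 7.05, 7.70 and 9.94 CPM to 25.9, 18.3 and 19.9 CPM (1.33 ± 0.27). Trib3 RNA stood at 6.51, 7.45 and 10.1 CPM in SCe, 3.29 and 3.53 CPM in Rptor fl/fl and 31.6 and 18.3 CPM in WT lines, highest in WT. Chac1, which degrades glutathione, rose in footprints (1.94 ± 0.34). Slc7a5, the leucine transporter, fell from 119, 154 and 147 CPM to 62.2, 46.1 and 54.8 CPM (-1.36 ± 0.19, adjusted p = 0.00276), and Cbs, of transsulfuration, from 34.2, 45.3 and 37.5 CPM to 15.8, 10.01 and 10.2 CPM (-1.69 ± 0.25). Asns, asparagine synthetase, Psat1 and Phgdh overlapped between groups (-0.31, -0.33 and -0.30, adjusted p = 0.464, 0.366 and 0.329), and in RNA these were -1.55, -2.35 and -1.41, called lower. None of 19 serine synthesis and one-carbon genes passed in footprints, and at most 2 did in either direction when 1 SCe library was left out. Amino acid transporters fell in 5 and rose in 1 of 21, among them Slc1a5, a glutamine transporter (-1.02 ± 0.23), and this count was 7, 4 and 4 when SCe 1, 2 and 3 were left out in turn and 2, 1 and 1 for Rptor-labelled 1, 2 and 3.

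Detoxification genes were the metabolic group with most rises. Of the glutathione and NRF2 list 10 of 27 tested members rose and 2 fell (median 0.49), and 8 of these 12 were called in every alternative. Gsta3, a glutathione transferase, stood at 81.9, 52.2 and 69.4 CPM in SCe and 343, 389 and 334 CPM in the Rptor-labelled libraries (2.38 ± 0.20, adjusted p = 0.000498). Nqo1, a quinone reductase induced by NRF2, was at 16.3, 27.4 and 11.1 CPM and 79.4, 78.3 and 70.9 CPM (2.16 ± 0.30, adjusted p = 0.00278), and Mgst2, a membrane-bound transferase, at 18.99, 30.8 and 27.5 CPM and 111, 93.2 and 94.8 CPM (1.95 ± 0.21). Every Rptor-labelled value of these lay above the SCe values. Gsta1, Gsta2 and Gsta4 rose too (2.32, 4.51 and 1.24), but Gsta genes are close copies whose reads may be divided. Hmox1, haem oxygenase, also a target of NRF2, fell from 41.8, 17.96 and 25.7 CPM to 5.82, 10.3 and 11.2 CPM (-1.65 ± 0.36, adjusted p = 0.0160), and Gclc, which limits glutathione synthesis, overlapped (0.05 ± 0.17, adjusted p = 0.871). Of cytochrome P450 genes 8 rose and 5 fell of 27, with Cyp2c66 from 10.3, 24.8 and 24.98 CPM to 180, 241 and 205 CPM (3.37 ± 0.31, adjusted p = 0.000677) and Cyp2c55 from 283, 435 and 601 CPM to 81.8, 99.7 and 85.6 CPM (-2.31 ± 0.27, adjusted p = 0.00166). The count of P450 rises was 11, 8 and 15 when SCe 1, 2 and 3 were left out in turn and 6, 6 and 5 for Rptor-labelled 1, 2 and 3. It was 3 with the offset for effective length.

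**Figure D5:**
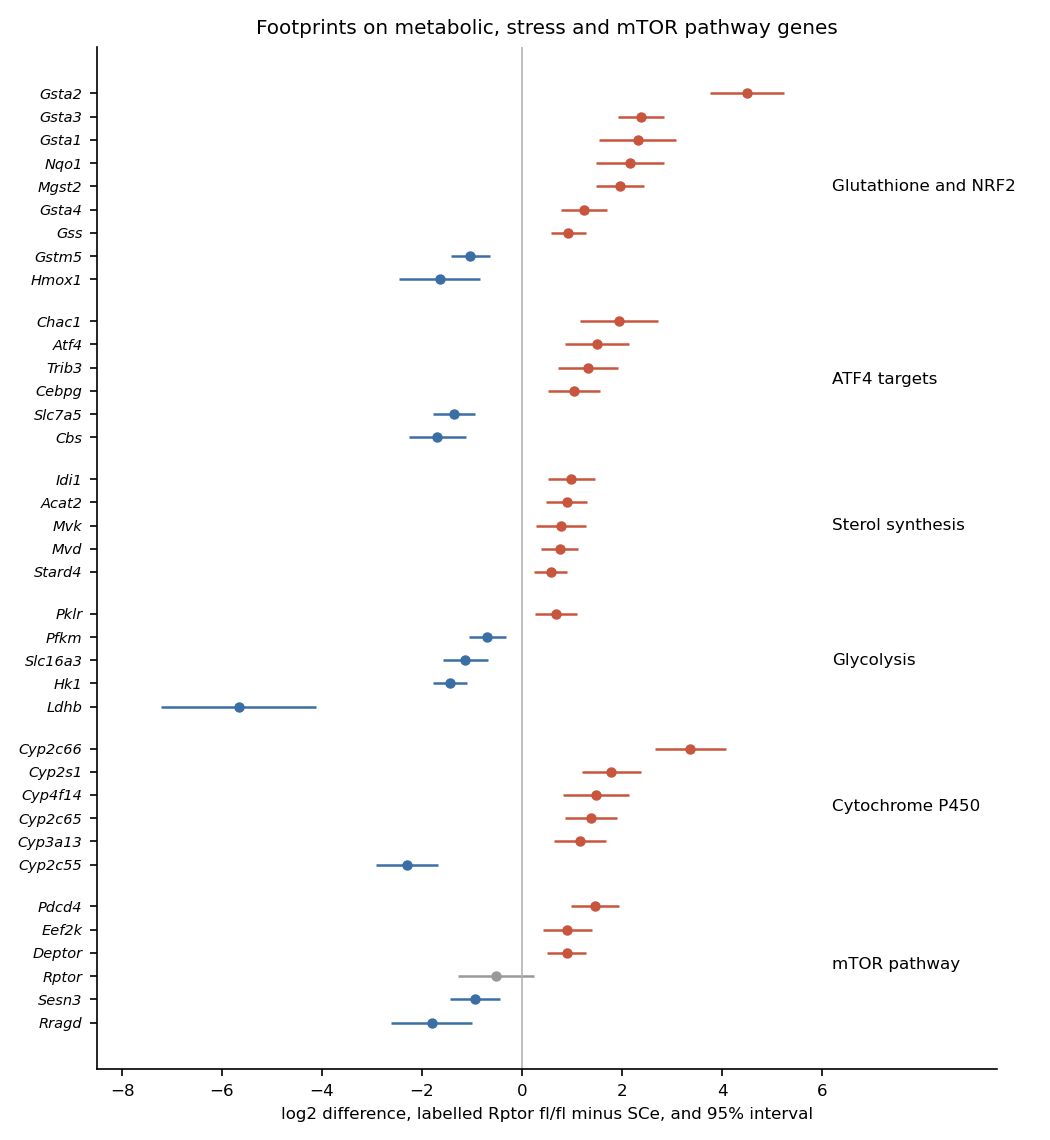
Log2 difference in footprints (labelled Rptor fl/fl minus SCe) with its 95% interval for genes of 6 lists, blue where called lower, red where called higher and grey where not called. Gsta2 is the highest at 4.51 and Ldhb the lowest at -5.67; Rptor is not called.

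Glycolysis genes had calls in both directions. In glycolysis 2 rose and 4 fell of 25 tested (median -0.21). Hk1, a hexokinase, stood at 227, 237 and 207 CPM in SCe and 79.6, 84.8 and 82.5 CPM in the Rptor-labelled libraries (-1.44 ± 0.15, adjusted p = 0.00118), without overlap. Ldhb, the heart-type lactate dehydrogenase subunit, was at 15.2, 39.4 and 19.7 CPM and 0.166, 1.11 and 0.122 CPM (-5.67 ± 0.68), and its RNA at 6.88, 30.9 and 19.8 CPM in SCe, 3.62 and 4.90 CPM in Rptor fl/fl and 0.322 and 0.202 CPM in WT lines. Slc16a3, the lactate exporter, fell (-1.13 ± 0.20), and Pklr, a pyruvate kinase, rose from 255, 352 and 371 CPM to 533, 525 and 506 CPM (0.68 ± 0.19, adjusted p = 0.0411). Pklr lost its call without SCe 2 and without any one Rptor-labelled library, and Slc16a3 without Rptor-labelled 2 or 3. In core glycolysis the rises numbered 3, 1 and 2 when SCe 1, 2 and 3 were left out in turn and 0, 0 and 0 for Rptor-labelled 1, 2 and 3, and the falls 8, 5 and 4 when SCe 1, 2 and 3 were left out in turn and 3, 2 and 2 for Rptor-labelled 1, 2 and 3. In mice 14 of 26 glycolysis genes were higher with Rptor fl/fl and 1 lower (backgrounds 7.47% and 5.97%). With all libraries none passed among the 37 genes of the list of respiratory complex I, nuclear, the 34 of complexes III, IV and ATP synthase, nuclear, and the 13 mitochondrially encoded genes (medians -0.16, -0.04 and 0.20). Among the mitochondrial ribosomal proteins 1 of 78 rose (median -0.18). Without SCe 1 these lists had 1, 8, 1 and 6 genes called higher and 0 lower, with medians of 0.19, 0.27, 0.74 and 0.11. Without SCe 3 they had 4, 3, 1 and 8 genes called lower, with medians of -0.36, -0.20, -0.27 and -0.32, and 1 gene of the last called higher, so no direction can be given for any of these lists. Sterol synthesis and uptake rose in 5 of 25 genes with none lower, Idi1 and Acat2 by 0.99 ± 0.21 and 0.89 ± 0.18, and the count was 11, 5 and 7 when SCe 1, 2 and 3 were left out in turn and 0, 0 and 0 for Rptor-labelled 1, 2 and 3, so the calls ended without any one Rptor-labelled library. Scd1, stearoyl-CoA desaturase, fell (-0.88 ± 0.23).

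The lists in this paragraph had at most 2 genes called in either direction with all libraries (backgrounds 6.63% higher and 9.84% lower). In the cell cycle and proliferation list 2 rose and 1 fell of 37, and the rises numbered 4, 0 and 4 when SCe 1, 2 and 3 were left out in turn and 1, 0 and 0 for Rptor-labelled 1, 2 and 3. Mki67, the proliferation marker, was at 492, 801 and 990 CPM in SCe and 1171, 1260 and 1284 CPM in the Rptor-labelled libraries, apart but not past the test (0.70 ± 0.25, adjusted p = 0.0925). Replication-dependent histones, which are near-identical copies of short genes, had a median of -0.59 with 2 lower of 60, and 0.01 without SCe 1. Without SCe 3 the median was -0.89 with 21 lower. Of 20 endoplasmic reticulum chaperones none passed (3 lower without SCe 1), and of 21 heat shock and chaperone genes 1 rose, Hspd1, the mitochondrial chaperonin, by 0.88 ± 0.16, and 2 fell, whereas without Rptor-labelled 2 or 3 no gene of cytosolic heat shock and chaperones rose and 1 fell. Of the ribosome collision and stress kinases list 2 rose and 2 fell of 26, and none of the 4 was called in every alternative. Among its immediate early genes Fos rose from 8.68, 4.28 and 8.56 CPM to 21.9, 17.9 and 18.5 CPM (1.36 ± 0.29), while Jun fell from 65.1, 186 and 174 CPM to 50.2, 41.6 and 46.4 CPM (-1.62 ± 0.35) and Egr1 from 74.9, 23.1 and 23.4 CPM to 14.3, 8.58 and 11.8 CPM (-1.80 ± 0.46), with adjusted p = 0.0146, 0.0152 and 0.0308. All 3 calls ended without any one Rptor-labelled library, and that of Jun without SCe 2. In the pentose phosphate pathway Pgd, which yields NADPH, and Rpia rose (0.75 ± 0.19 and 1.33 ± 0.23) of 7 tested, and 1 of the pair without any one Rptor-labelled library.

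The antimicrobial and mucosal alarm list had 2 higher and 2 lower of 8 tested. The C-type lectins Reg3b and Reg3g, which are antibacterial, fell from 107, 463 and 148 CPM to 11.8, 4.45 and 3.53 CPM (-5.18 ± 0.69, adjusted p = 0.00250) and from 231, 453 and 242 CPM to 45.9, 27.3 and 41.7 CPM (-3.00 ± 0.32, adjusted p = 0.00122). In mice both were higher with Rptor fl/fl (1.63 and 1.73). Their organoid RNA was far below SCe 2 and 3 in both other groups, at 45.6 and 61.3 CPM in Rptor fl/fl and 26.3 and 64.4 CPM in WT lines for Reg3g against 108, 1004 and 1264 CPM in SCe. Dmbt1, a secreted scavenger receptor of the mucosa, rose from 84.6, 256 and 292 CPM to 3182, 2482 and 2909 CPM (3.76 ± 0.43, adjusted p = 0.00147). Antigen presentation genes fell in 4 and rose in 1 of 10 tested members (median -0.96). The class I gene H2-D1 fell from 284, 441 and 350 CPM to 169, 136 and 142 CPM (-1.27 ± 0.20, adjusted p = 0.00494), H2-K1 fell too (-1.09 ± 0.20), and Psmb10, an immunoproteasome subunit, rose from 11.4, 22.2 and 23.4 CPM to 79.4, 70.4 and 66.4 CPM (1.91 ± 0.26, adjusted p = 0.00282). Class I genes are similar to each other, and their reads may be divided. The count that fell was 8, 3 and 4 when SCe 1, 2 and 3 were left out in turn and 3, 2 and 2 for Rptor-labelled 1, 2 and 3. Casp1, the inflammasome protease, rose from 21.2, 29.9 and 26.6 CPM to 130, 130 and 128 CPM (2.33 ± 0.18, adjusted p = 0.000343).

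Among the other genes with the smallest p, Ass1, argininosuccinate synthase of arginine synthesis, fell from 244, 161 and 244 CPM to 23.3, 22.6 and 23.02 CPM (-3.24 ± 0.21, adjusted p = 0.000192), and Arg2, the mitochondrial arginase, rose from 32.01, 23.95 and 29.8 CPM to 143, 125 and 136 CPM (2.22 ± 0.18, adjusted p = 0.000343). Slc25a4, an ADP/ATP carrier of mitochondria, fell from 313, 228 and 230 CPM to 43.4, 43.99 and 39.8 CPM (-2.60 ± 0.19), and Cadm1, an adhesion molecule, from 36.9, 64.2 and 58.97 CPM to 1.66, 2.06 and 2.31 CPM (-4.69 ± 0.30). S100g, the vitamin D dependent calcium carrier calbindin-D9k, rose from 39.1, 30.8 and 37.2 CPM to 280, 239 and 211 CPM (2.76 ± 0.19, adjusted p = 0.000237). Sult1d1, a sulfotransferase, and Prap1, a secreted protein of enterocytes, rose by 2.11 ± 0.17 and 2.47 ± 0.20. No range of these 7 genes overlaps between the groups.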

How the data were processed

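Footprints came from ribosomes pulled down through HA-tagged RPL22, digested with RNase I and sequenced on a HiSeq2500. The authors trimmed reads (cutadapt 1.18 in their processing notes) and quantified them against GENCODE vM21 with Salmon 1.1.0. They deposited estimated counts per sequence entry, beside TPM and effective length. TPM was not used. Estimated counts of a gene's coding-sequence entries were added up, then rounded. RNA-seq technical libraries were summed per line. Mouse footprints had been counted on other sequences, so levels were not compared with organoids.

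Differences were tested with edgeR 4.0.16 in R 4.3.3 (filterByExpr, TMM, quasi-likelihood test, Benjamini-Hochberg adjustment over all genes, threshold 0.05), 3 libraries against 3. In simulated counts of the organoid footprints with 200 genes changed by 2 on the log2 scale, the test found 196, with 15 false calls. The changed genes were drawn from the better covered genes, and both groups were given the same spread, unlike the real libraries. The simulation therefore does not give the power for low genes, smaller changes or groups of unequal spread. DESeq2 1.42.0, other scalings and filters, an offset for effective length, thinning and leaving out each library were alternatives.

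Members and lists (62 lists, 1477 genes, 1230 tested) were chosen with earlier results of these data known. From each list, up to 6 members called per direction with the smallest p and up to 3 others with the highest mean were named, with the 12 smallest p and 12 largest changes per direction. The following were named after their values were seen: Ascl2, Znrf3, Tff3, Mmp7, Lamp1, Neu1, Ctsd, Atp6v1a, Atp6v0e, Atp6v0d1, Mcoln1, Hspg2, Lamc1, Clu, Ly6a, Src, Mtor, Asns and Gclc. Values of a few list members are not reported here. Libraries were not paired by replicate number in the main test. Intervals cover the spread between libraries only.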

Additional observations from a re-analysis of the deposited data

How the results depend on the processing

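The organoid footprint comparison called 1781 genes (edgeR quasi-likelihood test). An adjusted p under 0.01 called 668, an offset for effective length 683 and thinning every library to the smallest 1002. Leaving out 1 library gave 669 (without Rptor-labelled 3) to 2682 (without SCe 1), and the other alternatives, DESeq2 at 2244 among them, lay within 1.5 times. For RNA, leaving out 1 library gave 2509 to 9101 genes beside 6452 with all libraries, and for mice 897 to 1954 beside 1547. Correlations of deviations between same-numbered footprint libraries were -0.05, 0.03 and 0.03, so no pairing by number was seen in these values. The Y-linked genes were nevertheless low in replicate 1 of both groups (2.17 and 2.66 CPM). Whether same-numbered libraries share an origin was not tested. With the replicate block the counts were 1228 for footprints, 3504 for RNA and 1305 for mice. The offset for effective length turned the sign of Tcirg1 (0.34), Ccne1 (0.55), Nbr1 (-2.24) and Esrrg (0.55), none of them called with it. The causes were not tested. Of 233 genes followed, 229 kept their direction in every alternative run and 114 kept direction and call. Depth limits low genes, as 3 footprints were 0.365 to 2.57 CPM across the libraries.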
